A study of Danio rerio with 16 samples.

Results

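Zebrafish ovary treated in culture with A8535, a synthetic agonist of the receptor SREB1, was compared across all genes with ovary treated with the peptide PNX-20. The comparison took 8 of the 16 RNA-seq libraries of the series, 4 labelled A8535 and 4 labelled PNX, and it sets the agonist against the peptide directly rather than each against the vehicle. A8535 was given at 5 µM and PNX-20 at 100 nM, both for 6 h at 28 °C, so the doses differed and the values below compare those treatments as given. The other 8 libraries were 4 DMSO controls and 4 ovaries given PT-91, another synthetic agonist, at 5 µM. All came from adult wild-type females collected from ponds, whose ovaries held mostly follicles in early growth. Each ovary was cut into sections that went to wells with different treatments, so libraries of different groups may share a fish, and the sources used here do not say which. The p-values therefore measure only the spread between these samples.

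The SREB receptors (SREB1 or GPR27, SREB2 or GPR85, SREB3 or GPR173) are orphan G protein-coupled receptors with sequences that have changed very little among vertebrates, and they are best known from the brain and the ovary. Phoenixin is a secreted peptide cut from the small membrane protein SMIM20, and it has been proposed as a ligand of SREB3. In mammals it acts on the pituitary and the ovary to raise gonadotropin release and follicle growth. Synthetic agonists of SREB1 were found through the recruitment of β-arrestin, the scaffold protein that binds activated receptors, and not through a classical G protein.

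Counts assigned to the 26910 genes present in all of the tables ran from 10232545 to 15102989 per library. Total counts, genes detected and the mitochondrial share overlapped between the A8535 and PNX-20 libraries, and with 4 against 4 an exact permutation test over 70 arrangements cannot give a p below 0.0286. A8535 replicate 2 stood apart, with 19047 genes detected against 20878 to 23758 in the other 7 and with 3.16% of its counts from the mitochondrial genome. Correlations of log2 CPM (counts scaled to a common library size) between A8535 and PNX-20 libraries ran from 0.811 to 0.929. Their median of 0.857 lay between the median within A8535 (0.843, from 0.808 to 0.896) and that within PNX-20 (0.875, from 0.854 to 0.877). The first principal component, with 21.9% of the variance, placed A8535 replicate 2 beside PT-91 replicates 1 and 2, and the second, with 12.8%, separated replicate 3 of A8535, of PNX-20 and of PT-91 from the rest. The labels give no batch, litter or culture day for any of these libraries.

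**Figure D1:**
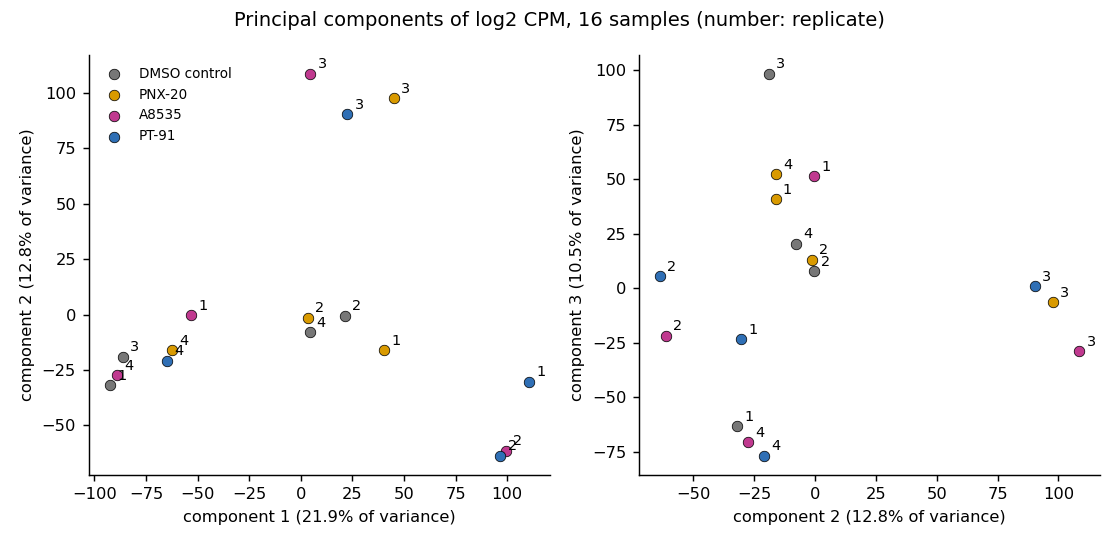
Position of the 16 libraries on the principal components of log2 CPM, each point a library numbered by its replicate and coloured by treatment. The A8535 and PNX-20 libraries do not separate by treatment, and the replicates numbered 3 of A8535, PNX-20 and PT-91 lie together at 90.4 to 109 on the second component.

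No gene differed between A8535 and PNX-20 at an adjusted p under 0.05. The smallest p adjusted by Benjamini-Hochberg in edgeR's quasi-likelihood test was 0.99991 over 19216 genes tested. At a nominal p under 0.05, that is before adjustment, 752 genes (3.91% of those tested) differed, fewer than the 961 that a share of 5% would give. Of these, 395 (2.06%) were higher and 357 (1.86%) lower in A8535. DESeq2 called 3 genes (0.0157%) after adjustment and 1083 (5.66%) before it, and limma-voom with quality weights called 0 and 1708 (8.89%). The count at a nominal p was 470 without PNX-20 replicate 1 and 1151 without A8535 replicate 2 and the PT-91 libraries beside it, and it stayed within 1.5 times of the 752 without any other single library. Without PNX-20 replicate 3, 1 gene passed the adjusted threshold in edgeR.

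Since no gene passed, genes are described by their values, and a nominal p ranks them and is not a call. The share of higher genes among the 752 was 52.5% (Wilson 95% interval 49.0 to 56.1%). That interval treats the genes as independent, which they are not. The share moved with the scaling, to 63.3% with upper quartile factors and 71.5% with library size alone. It was 64.5% when only the 8 libraries were fitted, and 43.5 to 71.6% over single omissions. The median log2 fold change of all tested genes was 0.02 in the main scaling and 0.12 with library size alone. Genes higher in A8535 were mostly of low abundance, with a median log2 CPM of 2.38 against 4.77 for the lower genes and 3.73 for all genes tested. Among genes averaging 100 CPM or more, 6 of 2263 (0.265%) were higher and 65 (2.87%) lower in A8535. Among those at 1 to 10 CPM the order was the other way, with 230 of 7396 (3.11%) higher and 90 (1.22%) lower. The control mean lay between the A8535 and PNX-20 means in 591 of the 752 genes (78.6%) and in 37.0% of all genes tested. Those 752 genes were picked for a gap between the A8535 and PNX-20 means, which by itself puts another mean between them more often. The shares therefore do not compare like sets, and no direction against control is read from them. Every A8535 library lay above every PNX-20 library for 301 genes (1.57%) and below for 352 (1.83%), together 3.4%.

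**Figure D2:**
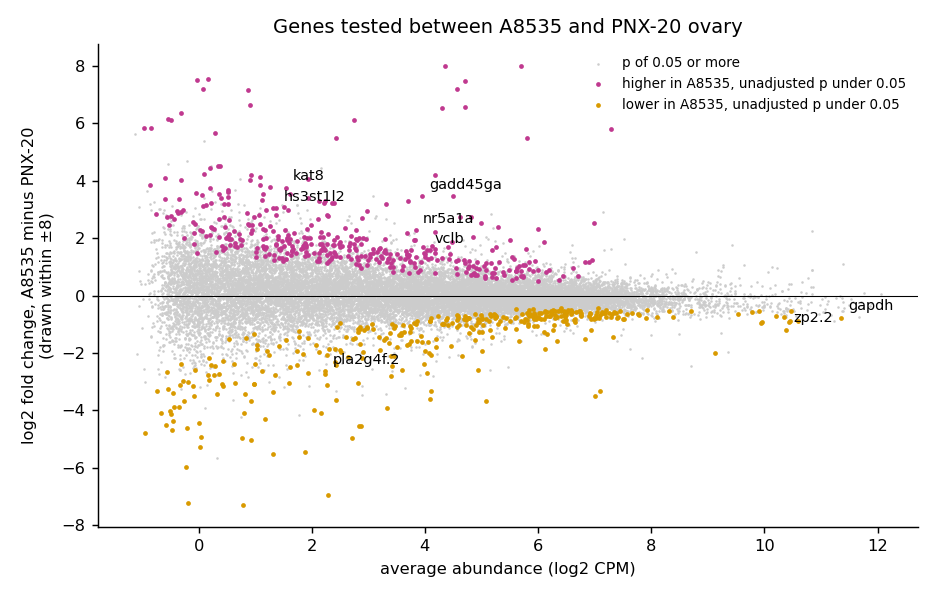
Log2 fold change of A8535 against PNX-20 (y axis) against average log2 CPM (x axis) for the 19216 genes tested, with the genes at a nominal p under 0.05 in colour and some labelled. The 395 higher genes lie mostly to the left, at low abundance, and the 357 lower genes extend to the right.

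The gene with the smallest p, and also a call of DESeq2, was gadd45ga (chromosome 8, 31367667 to 31369144 in GRCz11), a stress-inducible regulator of growth arrest and of p38 kinase signaling. Its level was 12.7, 45.5, 7.17 and 20.2 CPM in A8535 replicates 1 to 4 and 1.80, 3.52, 0.894 and 1.45 CPM in PNX-20. The groups did not overlap, with a log2 fold change of 3.47 (SE 0.81, unadjusted p = 0.000585 in edgeR, adjusted p = 0.0175 in DESeq2). Controls ran from 1.4 to 31.3 CPM and overlapped both groups, and PT-91 ran from 8.89 to 40.1 CPM. Control replicate 1 lay within the PNX-20 range and the other controls within that of A8535. The nuclear receptor gene nr5a1a (chromosome 8, 52833443 to 52861412) switches on the genes of steroid synthesis. It measured 29.0, 21.9, 53.7 and 10.8 CPM in A8535 and 3.14, 3.36, 11.9 and 5.36 CPM in PNX-20, a log2 fold change of 2.28 (SE 0.60, unadjusted p = 0.00157). Only the lowest A8535 library and the highest PNX-20 library crossed, and the PNX-20 values covered about the range of the controls (3.80 to 10.5 CPM).

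Vinculin, the cytoskeletal linker of focal adhesions, has its gene vclb at chromosome 12, 46775083 to 46835940. It stood at 23.9, 15.6, 31.1 and 29.3 CPM in A8535 and at 5.65, 8.21, 9.39 and 10.2 CPM in PNX-20, without overlap (log2 fold change 1.58, SE 0.45). Controls of vclb overlapped both groups. Control replicates 1 and 3 lay within the A8535 range, the latter at 23.2 CPM. Control replicate 2, at 9.13 CPM, lay within the PNX-20 range, and control replicate 4, at 11.4 CPM, lay between the groups. The homeodomain-interacting protein kinase gene hipk3b was at 22.2 to 46.9 CPM in A8535 and 7.29 to 16.6 CPM in PNX-20 (1.32, SE 0.36), with controls below A8535 at 9.38 to 18.6 CPM. The L-type calcium channel subunit cacna1da was at 8.49 to 25.4 CPM against 2.19 to 4.65 CPM (1.98, SE 0.55). Here the PNX-20 libraries were the low ones, since the controls ran from 6.09 to 24.5 CPM. Also without overlap between A8535 and PNX-20 were nod1, an intracellular sensor of bacterial cell wall (2.02, SE 0.60), sh3gl3a, an endophilin of vesicle endocytosis (1.96, SE 0.58), and hs3st1l2, a heparan sulfate sulfotransferase (3.05, SE 0.89). Controls of hs3st1l2, at 0.584 to 5.04 CPM, overlapped both groups. Its values in PNX-20 replicates 1 and 4, 0.157 and 0.182 CPM, lay under what 3 counts give there (0.235 and 0.273 CPM). The size of that fold change is therefore uncertain. The amino acid transporter slc38a4 (1.46, SE 0.43) overlapped, at 14.8 to 66.8 against 11.0 to 18.4 CPM. The zinc finger gene znf148 did not (2.3, SE 0.68), at 1.27 to 7.29 against 0.546 to 1.25 CPM.

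A different pattern belonged to kat8, a histone acetyltransferase. It measured 0.452 and 0.970 CPM in A8535 replicates 1 and 2, 9.91 and 24 CPM in replicates 3 and 4, and 0.273 to 0.805 CPM in PNX-20. Its log2 fold change of 3.76 (SE 0.99) came from those higher libraries, and the other A8535 values lay within or just above the PNX-20 and control ranges (0.413 to 1.04 CPM in controls).

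**Figure D3:**
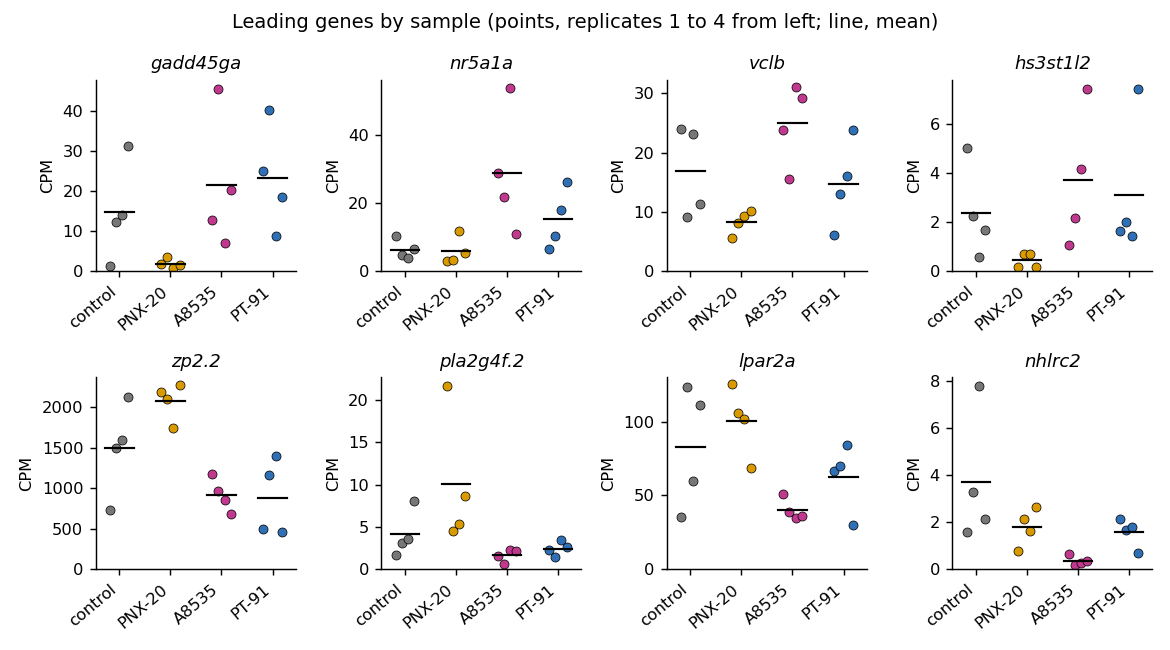
CPM (y axis, linear) in each library for 8 of the leading genes, by treatment, with points placed in replicate order and a line at the mean of each group. The A8535 points lie above the PNX-20 points for gadd45ga, vclb and hs3st1l2 and below them for zp2.2, pla2g4f.2, lpar2a and nhlrc2, while nr5a1a overlaps.

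Among genes lower in A8535 the smallest p on an assembled chromosome was that of pla2g4f.2 (chromosome 17, 21480961 to 21494297), a member of the cytosolic phospholipases that free fatty acids from membranes. It measured 1.54, 0.597, 2.21 and 2.12 CPM in A8535 and 21.6, 4.46, 5.36 and 8.64 CPM in PNX-20, without overlap (log2 fold change -2.63, SE 0.66, unadjusted p = 0.00108). Control libraries ran from 1.65 to 8.04 CPM. A receptor for lysophosphatidic acid, lpar2a (chromosome 3, 53083190 to 53092509), was at 34.8 to 50.9 CPM in A8535 and 68.7 to 126 CPM in PNX-20 (-1.33, SE 0.38). The controls spanned both groups, at 35.7 to 124 CPM.

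Several of the lower genes serve basic functions of the cell and differed by less than 2-fold without overlap between the groups. The RNA helicase ddx47, which works in ribosome assembly, was at 42.1 to 61.7 CPM in A8535 and 79.1 to 118 CPM in PNX-20 (-0.83, SE 0.22). Another ribosome assembly gene, bxdc2, was at 77.6 to 119 against 147 to 238 CPM (-0.78, SE 0.23). The SUMO-activating enzyme subunit sae1 was at 86.1 to 95.6 against 119 to 235 CPM (-0.81, SE 0.26), and the kinesin-binding gene kif1bp at 26.1 to 41.9 against 49.8 to 72.9 CPM (-0.88, SE 0.26). These 4 genes had PNX-20 levels that reached above the controls. Controls ran from 57.5 to 75.0 CPM for ddx47 and from 116 to 188 CPM for bxdc2, so the A8535 levels of both also reached below them. The nuclear pore gene nup43 (-1.02, SE 0.31) and st3gal5, a sialyltransferase that starts ganglioside synthesis (-1.51, SE 0.47), showed the same order, with st3gal5 at 41.1 to 87.4 against 105 to 321 CPM. For nhlrc2 (-2.37, SE 0.73) the A8535 libraries at 0.149 to 0.633 CPM lay below the controls (1.57 to 7.79 CPM) as well as below PNX-20 (0.784 to 2.64 CPM).

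The NMDA receptor subunit grin3ba was at 2.69 to 12.7 CPM in A8535 and at 11.8 to 77.5 CPM in PNX-20, the highest value being PNX-20 replicate 4 (-2.06, SE 0.58). A single library carried epcam, an epithelial adhesion protein. It was at 1478 CPM in PNX-20 replicate 1 and at 20.4 to 48.3 CPM in the other 7 libraries, and its log2 fold change of -3.32 (SE 1.02) became 0.19 without that library.

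The other calls of DESeq2 were features on alternate scaffolds, which hold second copies of some genes and can share their reads. A copy of poldip2 was at 0.633, 1.72, 0.955 and 1.02 CPM in A8535 and at 1.25, 1.72, 62.4 and 36.9 CPM in PNX-20. It had an adjusted p of 0.0175 in DESeq2, and in edgeR a log2 fold change of -4.55 (SE 1.12) with a nominal p of 0.000863. A scaffold copy of LOC795984 held 867, 0, 0 and 369 counts in A8535 and 0 counts in each PNX-20 library, with an adjusted p of 4.68e-05 in DESeq2. Controls ran from 0 to 111 CPM for that copy, so presence and absence both occurred without either compound. A count of 0 allows up to 3 counts, or 0.179 to 0.273 CPM in these 8 libraries. Scaffold features as a whole were at a nominal p under 0.05 as often (123 of 3039, 4.05%) as genes on chromosomes (3.89%). Among tested features that share a gene symbol with another feature, 180 of 4485 were at a nominal p under 0.05. Over all genes tested it was 752 of 19216 (3.91%). With the counts of such copies summed, 72 of those 180 were still under 0.05, so the values of single copies are uncertain.

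The receptors that the treatments were chosen for were close to the limit of detection. The gene of SREB1, gpr27 (chromosome 6, 43903209 to 43907321), held 8 counts in the 8 libraries together and was not tested. The gene of SREB3, gpr173 (chromosome 8, 23410925 to 23426640), was at 1.72, 0, 1.13 and 0.593 CPM in A8535 and 1.02, 1.02, 0.805 and 0.637 CPM in PNX-20. With a log2 fold change of -0.02 and an SE of 1.09, a 2-fold difference in either direction was not detectable at this depth. The phoenixin precursor gene smim20 was at 9.83 to 72.8 CPM in A8535 and 11.9 to 52.2 CPM in PNX-20 (0.04, SE 0.74). Of the β-arrestin genes, arrb2a (-0.28, SE 0.26, at 20.9 to 50.7 against 40.9 to 58.9 CPM) and arrb2b (0.57, SE 0.42) were tested and arrb1, with 46 counts over the 8 libraries, was not. Neither passed a nominal p of 0.05. In the list of arrestins, receptor kinases and RGS proteins, 2 of 18 tested genes (11.1%, against 2.06% of all genes) were higher and none lower, with a median log2 fold change of 0.33 against 0.02 over all genes. One was rgs16, which speeds the shut-off of G proteins, and it rested on A8535 replicate 2 at 25.7 CPM against 0.546 to 2.54 CPM in the other 7 (2.71, SE 1.11). Without that library its log2 fold change was 0.71, and without PNX-20 replicates 3 or 4 it was 2.5 and 2.47, each at a nominal p over 0.05.

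Oocyte genes sat lower in A8535 than in PNX-20. Of 26 oocyte markers, 23 had a negative log2 fold change, and the median was -0.41. At a nominal p under 0.05, 3 (11.5%, against 1.86% of all genes) were lower. The oocyte genes named below were above 100 CPM in each A8535 and PNX-20 library. Among all genes averaging 100 CPM or more, 2.87% were lower and the median was -0.09, so abundant genes leaned the same way. The mean centred log2 CPM of the list was -0.35 to -0.06 in A8535 and 0.19 to 0.34 in PNX-20, without overlap. Their summed level was 14022 to 20397 CPM in A8535, 21372 to 26884 CPM in PNX-20, 19587 to 25489 CPM in controls and 14318 to 22120 CPM in PT-91. In whole ovary, fewer cells of a type and less RNA per cell cannot be told apart. The egg coat gene zp2.2 (chromosome 20, 54290361 to 54292144) was at 1174, 964, 850 and 681 CPM in A8535 and 2190, 2109, 1744 and 2280 CPM in PNX-20 (-1.18, SE 0.38, unadjusted p = 0.00708). Another egg coat gene, zp3.2, was at 656 to 1690 CPM against 1422 to 2354 CPM (-0.88, SE 0.32). The maternal factor zar1, needed by the oocyte and early embryo, was at 413 to 986 CPM against 1079 to 1651 CPM (-0.91, SE 0.38). Without A8535 replicate 2, A8535 replicate 3 or PNX-20 replicate 1 the log2 fold change of zar1 was -0.74, -0.73 and -0.78, each at a nominal p over 0.05. The median of the list stayed between -0.53 and -0.24 when any single library was left out.

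Genes of steroid synthesis and of the response to gonadotropins sat higher in A8535. In the study ovarian steroidogenesis was a weaker change with A8535, at an unadjusted p. No steroid measured in the culture media differed significantly from control. The pathway was named from these same A8535 libraries, so the list is not independent evidence of a direction. Of its 30 tested members, 6 (20%, against 2.06% of all genes) were higher at a nominal p under 0.05 and none lower, and 23 had a positive log2 fold change with a median of 0.39. The centred level of the list was 0.08 to 0.56 in A8535 and -0.44 to -0.19 in PNX-20, without overlap, while its summed level was 1596 to 1971 CPM in A8535 and 1756 to 2128 CPM in PNX-20, with overlap. The most abundant member, the lipoprotein receptor gene scarb1, named after its values were seen, averaged 709.8 CPM in A8535 and 933.8 CPM in PNX-20 (-0.40, SE 0.25). Besides nr5a1a, the luteinizing hormone receptor gene lhcgr was at 16.5, 4.85, 28.3 and 7.96 CPM in A8535 and 5.80, 2.42, 5.19 and 6.55 CPM in PNX-20 (1.53, SE 0.59). The gene hsd3b1, which makes progesterone from pregnenolone, was at 26.4, 7.69, 31.5 and 12.8 CPM against 6.59, 4.85, 18.2 and 1.64 CPM (1.32, SE 0.61). Both overlapped, with A8535 replicates 1 and 3 the high ones.

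The electron donor of steroid-making P450 enzymes, pora, was at 67.8 to 89.5 against 42.5 to 65.3 CPM, without overlap (0.52, SE 0.24). A scaffold copy of hsd17b3, which reduces androstenedione to testosterone, was at 0.0847 to 2.63 CPM against 0 to 0.182 CPM (4.22, SE 1.57). Its PNX-20 values all lay under the level of 3 counts in those libraries (0.235 to 0.273 CPM). The lowest A8535 value lay under that level too, so the size of this fold change is uncertain. Aromatase of the ovary, cyp19a1a, which makes estradiol, was at 7.88 to 28.4 CPM against 6.27 to 18.2 CPM and did not pass (0.29, SE 0.50). Leaving out A8535 replicate 3 took lhcgr to 0.97 and hsd3b1 to 0.99, and leaving out A8535 replicates 2 or 3 or PNX-20 replicates 1 or 3 put pora at 0.43, 0.52, 0.44 and 0.43, each at a nominal p over 0.05. Single omissions of A8535 replicate 1, PNX-20 replicate 1, PNX-20 replicate 2 and PNX-20 replicate 4 left hsd3b1 at 1.25, 1.25, 1.25 and 0.98, also over 0.05.

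Of 31 genes of the gonadotropin and progestin response, 5 (16.1%, against 2.06% of all genes) were higher and none lower, with a median of 0.67 that was 0.14 without A8535 replicate 3. The centred level of this list overlapped, at -0.32 to 0.91 in A8535 and -0.57 to 0.05 in PNX-20. The transcription factor runx1, which luteinizing hormone induces in follicles of mammals, was at 4.55 to 11.5 CPM in A8535 and 1.25 to 3.67 CPM in PNX-20 (1.61, SE 0.53). The epidermal growth factor receptor gene egfra was at 35.8, 18.0, 38.3 and 13.9 CPM against 3.06, 12.8, 7.60 and 15.1 CPM (1.46, SE 0.54). The phospholipase gene pla2g4aa, which frees arachidonic acid for prostaglandin synthesis at ovulation, was at 5.60 to 14.5 against 2.18 to 5.54 CPM (1.38, SE 0.51). Without A8535 replicate 3 the log2 fold change of egfra was 1.22 and that of pla2g4aa 0.99, both at a nominal p over 0.05. Among markers of granulosa and theca cells 3 of 17 (17.6%, against 2.06% of all genes) were higher and none lower, with a median of 0.43 (-0.01 without A8535 replicate 3), and a summed level of 456 to 908 CPM in A8535 and 469 to 641 CPM in PNX-20. They share nr5a1a, lhcgr and hsd3b1 with the lists above, and their part in the result was not tested.

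Genes that anchor cells to the matrix had mostly positive log2 fold changes, although the groups overlapped in the level of each list. Of 145 tested genes in the lists of integrins and focal adhesion, collagens and other matrix genes together, 21 were higher and 1 lower at a nominal p under 0.05, against 2.06% and 1.86% of all genes. A positive log2 fold change was found for 108 of them, against 51.8% of all genes, and the median was 0.46. The centred levels of A8535 replicate 2, at -0.43 for integrins, -0.24 for collagens and -0.06 for other matrix genes, lay within those of PNX-20 (-0.46 to 0.09, -0.45 to 0.19 and -0.43 to 0.19). The study named focal adhesion and the matrix from these same A8535 libraries, so this too is not independent evidence. Integrins and focal adhesion gave 10 of 60 (16.7%) higher and none lower, with a median of 0.48 that ranged from 0.22 to 0.72 when single libraries were left out. After vclb came itgb8, an integrin that activates latent TGF-beta, at 8.67, 4.78, 9.38 and 2.46 CPM in A8535 and 2.2, 1.17, 1.61 and 1.73 CPM in PNX-20 (1.91, SE 0.60). The focal adhesion scaffold paxillin, pxnb, was at 4.78 to 9.49 against 1.25 to 3.55 CPM (1.6, SE 0.51). Neither overlapped between A8535 and PNX-20, and both had PNX-20 values that overlapped the controls (0.881 to 2.43 and 2.63 to 5.45 CPM). The A8535 values of pxnb overlapped its controls too. A laminin-binding integrin, itga3b, was at 12.0 to 50.5 against 6.04 to 14.0 CPM (1.31, SE 0.49), and at 0.85 without A8535 replicate 3 and 1.1 without PNX-20 replicate 1 it no longer had a nominal p under 0.05.

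Of 50 matrix genes other than collagens, 7 (14.0%, against 2.06% of all genes) were higher and none lower, with a median of 0.41. Laminin chains of the basement membrane were among them, with lama1 at 38.0, 11.5, 26.5 and 51.9 CPM against 4.16, 7.97, 13.2 and 13.8 CPM (1.71, SE 0.67) and lama5 at 11.9 to 47.4 against 3.22 to 18.0 CPM (1.69, SE 0.72). The matrix glycoprotein thbs1b was at 32.5 to 62.8 against 10.9 to 38.4 CPM (1.21, SE 0.50). Each of these overlapped between the groups. Without A8535 replicate 4 lama1 was at 1.37, and without PNX-20 replicate 1 lama1, lama5 and thbs1b were at 1.45, 1.4 and 1.0, all with a nominal p over 0.05. For lama5 the same held without A8535 replicates 1 or 3 (1.52 and 1.42) or PNX-20 replicate 2 (1.57), and for thbs1b without A8535 replicate 3 (1.03) or PNX-20 replicate 4 (1.00).

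Among 35 collagen genes, 4 (11.4%, against 2.06% of all genes) were higher and 1 (2.86%, against 1.86%) lower. The median of 0.47 became 0.09 without A8535 replicate 3. The basement membrane collagen col4a1 was at 16.9, 6.12, 12.5 and 9.15 CPM in A8535 and 0.549, 2.66, 2.77 and 5.00 CPM in PNX-20 (2.02, SE 0.80), without overlap, although controls spanned both at 1.28 to 17.4 CPM. The chains of beaded-filament collagen, col6a2 (2.08, SE 0.68, at 4.93 to 20.2 against 1.97 to 3.73 CPM) and col6a1 (1.13, SE 0.47, at 8.13 to 26.8 against 5.81 to 9.65 CPM), stood in the same order. A collagen of vessel basement membrane, col15a1a, was lower, at 1.12 to 2.87 against 3.92 to 7.33 CPM (-1.55, SE 0.70). Leaving out PNX-20 replicate 1 put col4a1 at 1.68, and leaving out A8535 replicate 3, PNX-20 replicate 3 or PNX-20 replicate 4 put col6a1 at 0.78, 1.02 and 1.04, with a nominal p over 0.05. For col15a1a, 6 of the 8 omissions did the same, at -1.37 to -1.57.

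Markers of the cells that make these proteins were counted in the same way, and the summed levels of all 3 marker lists overlapped. Of 16 smooth muscle and pericyte markers, 13 had a positive log2 fold change, with a median of 0.76. Their summed level was 327 to 457 CPM in A8535 and 232 to 449 CPM in PNX-20. At a nominal p under 0.05, 2 (12.5%, against 2.06% of all genes) were higher and none lower. They were the smooth muscle myosin myh11a, at 9.66 to 35.0 against 4.92 to 9.82 CPM (1.45, SE 0.52, and 1.04 without A8535 replicate 1 with a nominal p over 0.05), and the tropomyosin tpm2, at 50.9 to 62.0 against 30.2 to 49.3 CPM (0.55, SE 0.25), which lost that p in 5 of the single omissions. Of 13 stromal fibroblast markers, 11 had a positive log2 fold change, with a median of 0.48 and a summed level of 59.8 to 242 CPM against 51.2 to 110 CPM. At a nominal p under 0.05, 2 (15.4%) were higher and none lower. Those genes were col6a1 and col6a2, which the collagen list also holds. None of 18 endothelial markers was at a nominal p under 0.05 (10 positive, median 0.17), and their summed level was 67.5 to 173 CPM against 77.6 to 167 CPM. The part of these cells in the matrix and adhesion values was not tested.

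**Figure D4:**
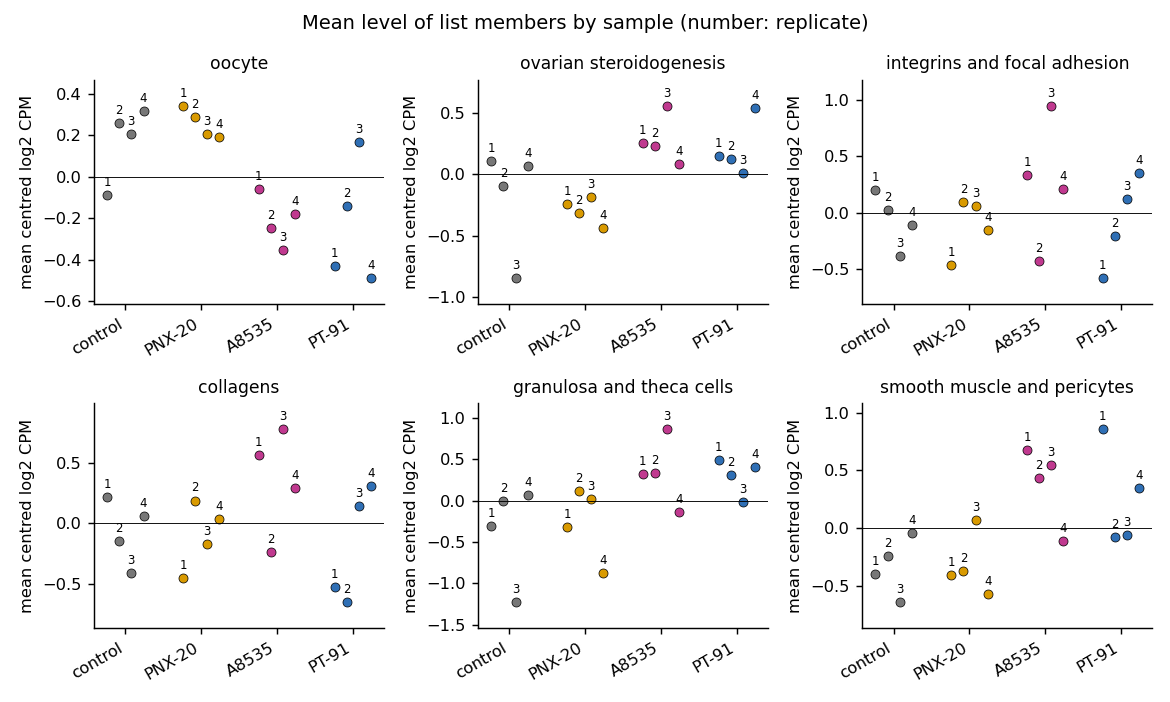
Mean centred log2 CPM of selected gene lists (y axis) in each library, by treatment. For ovarian steroidogenesis all A8535 points (0.08 to 0.56) lie above all PNX-20 points (-0.44 to -0.19), and for oocyte markers they lie below.

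Molecules that join cells to each other went both ways, with 3 of 40 (7.5%) higher and 3 (7.5%) lower, against 2.06% and 1.86% of all genes (median 0.35). The study named cell adhesion molecules from these same A8535 libraries, so the list is not independent evidence. The junction protein jam3b was at 11.0 to 23.4 CPM in A8535 and 2.59 to 10.4 CPM in PNX-20 (1.46, SE 0.48), and the tight junction claudin cldn5a at 1.57 to 8.54 against 0.471 to 1.16 CPM (2.28, SE 0.76, and 1.64 without A8535 replicate 3 with a nominal p over 0.05). A junction protein of the same family as jam3b, f11r.1, was lower, at 33.4 to 60.8 against 75.6 to 105 CPM (-0.81, SE 0.30). It was at -0.66 and -0.67 without A8535 replicates 1 and 3, over 0.05.

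Signaling lists held few genes at a nominal p under 0.05. The study named TGF-beta signaling from these same A8535 libraries, so that list is not independent evidence. Of 60 TGF-beta and BMP genes, 2 (3.33%, against 2.06% of all genes) were higher and none lower (median 0.18, and -0.01 without A8535 replicate 4), and both were type II receptors for BMP ligands. One, bmpr2b, was at 12.8, 14.9, 21.2 and 6.10 CPM in A8535 and 0, 2.89, 4.56 and 3.91 CPM in PNX-20 (2.28, SE 0.87), without overlap. Its paralog bmpr2a was at 15.0, 2.24, 38.5 and 8.73 against 3.53, 2.35, 8.76 and 5.82 CPM (1.66, SE 0.70). Without A8535 replicate 3, bmpr2a was at 0.76, and without PNX-20 replicates 1 or 2 it was at 1.51 and 1.52, each over 0.05.

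Immediate early genes, which cells switch on within minutes of a stimulus, gave 3 of 50 (6.0%, against 2.06% of all genes) higher and none lower with a median of 0.18. The kinase sik1, which cAMP induces, was at 18.4 to 35.3 against 6.27 to 19.5 CPM (1.17, SE 0.43), and the AP-1 subunits fosb (1.13, SE 0.43, at 37.2 to 66.6 against 12.9 to 37.2 CPM) and jund (1.08, SE 0.46, at 8.39 to 17.4 against 3.46 to 8.05 CPM) stood likewise. Each lost a nominal p under 0.05 without some single library, with sik1 at 0.96 without A8535 replicate 3, fosb at 0.99 without A8535 replicate 4 and 0.93 without PNX-20 replicate 1, and jund at 0.83 to 1.07 without 5 of the 8. The list of cAMP and CREB genes, a pathway that the study named with A8535, had 1 of 46 (2.17%, against 1.86% of all genes) lower and none higher (median 0.23).

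Insulin and glucose genes, another theme that the study named from these A8535 libraries, gave 3 of 63 (4.76%, against 2.06% of all genes) higher and none lower, with a median of 0.34. The binding protein igfbp5b, which holds insulin-like growth factor in the matrix, was at 94.3, 64.1, 194 and 27 CPM against 53.9, 33.1, 46.0 and 37.2 CPM (1.16, SE 0.49). It was at 0.54 without A8535 replicate 3 and at 1.16 and 1.09 without PNX-20 replicates 2 and 4, all over 0.05. In the list headed oxytocin, GnRH and kisspeptin systems, only 8 of the 28 genes present were tested. Of these 8, 2 (25.0%, against 1.86% of all genes) were lower and none higher, with a median of -1.09 and a range of -2.69 to 0.89. Their centred level was -0.85 to -0.26 in A8535 and -0.05 to 0.67 in PNX-20, without overlap. In controls it was 0.13 to 0.25. The summed level of the list overlapped, at 10.5 to 25.3 CPM in A8535 and 20.7 to 50.8 CPM in PNX-20. The lower gene described here, cckar, encodes a cholecystokinin receptor and belongs to none of the systems in that heading. It was at 2.87 to 6.87 CPM in A8535 and at 8.55, 7.51, 8.31 and 34.9 CPM in PNX-20, without overlap (-1.67, SE 0.64). Omitting PNX-20 replicate 4 gave -0.81, and omitting A8535 replicates 1 or 3 gave -1.43 and -1.50, each over 0.05. In the glutamatergic synapse list, grin3ba was 1 of 2 lower genes among 37 (5.41%, against 1.86% of all genes, median -0.09). That median changed sign in 7 alternatives. The study named this pathway from these same PNX-20 libraries, so the list is not independent evidence.

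Energy genes split. Of 47 genes of glycolysis and lactate use, 2 (4.26%) were higher and 2 (4.26%) lower, against 2.06% and 1.86% of all genes (median -0.11). The glycolytic enzyme gapdh was lower, at 2141, 1521, 2127 and 1980 CPM against 4465, 2519, 3991 and 2210 CPM, without overlap (-0.76, SE 0.31). The study used gapdh among its PCR reference genes and reported that those did not differ significantly between treatments. The glycolytic enzyme tpi1b was higher, at 32.5 to 88.5 against 26.6 to 39.7 CPM (0.87, SE 0.33). So was pdk3a, a kinase that inhibits pyruvate dehydrogenase, at 9.32 to 33.6 against 6.88 to 8.58 CPM (1.28, SE 0.44). Without A8535 replicate 2 tpi1b was at 0.59, without A8535 replicate 3 pdk3a was at 0.82, and gapdh was at -0.59 to -0.71 without 4 of the 8 libraries, all at a nominal p over 0.05.

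Of 74 proteins of the mitochondrial ribosome, 4 (5.41%, against 1.86% of all genes) were lower and none higher. The median of -0.10 changed sign in 4 alternatives and ranged from -0.58 to 0.08 over all of them. The clearest was mrpl37, at 66.6, 69.7, 73.4 and 72.4 CPM in A8535 and 154, 111, 80.8 and 103 CPM in PNX-20, without overlap (-0.67, SE 0.21). With it were mrpl44 (-0.75, SE 0.29), mrpl38 (-0.76, SE 0.34) and mrps34 (-0.55, SE 0.24), which lost a nominal p under 0.05 without 3, 4 and 6 of the 8 libraries, at -0.61 to -0.65, -0.58 to -0.68 and -0.42 to -0.55. Nuclear genes of the respiratory chain gave 2 of 89 (2.25%) lower and none higher (median -0.16). The 13 proteins that the mitochondrion itself encodes all had a positive log2 fold change, with a median of 0.90, but the median was -0.11 without A8535 replicate 2, the library with the highest mitochondrial share. One of them, ATP8, a subunit of the ATP synthase, was at 1.08, 7.69, 2.93 and 0.932 CPM against 0.0784, 1.02, 1.07 and 1.09 CPM (1.95, SE 0.90, and 1.01 without that library). Its nominal p was over 0.05 without 6 of the 8 libraries, at 1.01 to 2.17.

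Cytosolic ribosomal proteins gave 1 of 83 (1.2%) higher and 2 (2.41%) lower, against 2.06% and 1.86% of all genes (median -0.22). Each of these had a nominal p over 0.05 without at least 1 of the libraries. The gene rpl36a was at 17.3, 108, 344 and 127 CPM in A8535 and 46.0, 23.6, 40.9 and 9.00 CPM in PNX-20 (2.32, SE 0.86, and 1.49 without A8535 replicate 3), so that 3 of the 4 A8535 libraries lay above every PNX-20 library. PNX-20 replicate 4 held rpl12 at 95.1 CPM against 8.86 to 22.5 CPM in the other 7 (-1.79, and -0.70 without it). PNX-20 replicate 2 held rps27a at 604 CPM against 3.90 to 35.1 CPM (-3.49, and 0.36 without it, or -3.18 to -3.32 without A8535 replicates 1, 3 or 4). All of these values without a library had a nominal p over 0.05. These genes have near-identical copies whose reads can be split, so their levels are uncertain.

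The remaining lists held few genes, and their shares stand against 2.06% higher and 1.86% lower over all genes. Xenobiotic metabolism gave 2 of 51 (3.92%) higher, among them the receptor nr1i2 (PXR), which senses foreign compounds, at 3.64 to 12.4 against 0.627 to 4.36 CPM (1.68, SE 0.59). Heat shock and the unfolded protein response gave 1 of 65 (1.54%) higher and 3 (4.62%) lower, among them the chaperone hspa8, at 54.5, 12.5, 40.1 and 64.2 against 128, 263, 46.9 and 72.6 CPM (-1.57, SE 0.63, and -0.84 without PNX-20 replicate 2 and -1.27 without A8535 replicate 2, over 0.05). Cholesterol synthesis and uptake gave 2 of 40 (5.0%) higher (median 0.10), and vascular signaling 1 of 63 (1.59%) higher and 1 (1.59%) lower (median 0.37). DNA replication gave 1 of 57 (1.75%) lower (median -0.06), and mitosis and meiotic maturation 1 of 50 (2.0%) higher and 1 (2.0%) lower (median -0.26). The study named DNA replication from these PNX-20 libraries and vascular endothelial growth factor signaling from these A8535 libraries.

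Yolk precursors, which the liver makes, were abundant in a single library. A8535 replicate 4 held the yolk precursors vtg1, vtg5 and vtg3 at 2265, 386 and 92.0 CPM, whereas the other 7 libraries were at or under 39.9 CPM for vtg1, 2.06 CPM for vtg5 and 0.894 CPM for vtg3. The fitted log2 fold changes of 5.81, 7.49 and 6.12 became -3.10, -1.85 and -1.7 without that library, and for vtg1 the nominal p was also over 0.05 without PNX-20 replicate 1, 2 or 4, at 5.4, 5.49 and 5.4. The summed level of all hepatocyte markers was 12.4 to 3759 CPM in A8535, 8.86 to 62.5 CPM in PNX-20 and 10.1 to 262 CPM in controls, and 5 of 11 tested markers (45.5%, against 2.06% of all genes) were higher. The median of that list was 3.02 with A8535 replicate 4 and -1.13 without it.

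Of 9 tested erythrocyte markers 1 (11.1%, against 1.86% of all genes) was lower, the anion exchanger slc4a1a, at 41.3 and 20.5 CPM in PNX-20 replicates 2 and 4 and at 0 to 3.30 CPM in the other 6 (-3.65, SE 1.26, and -2.50 without PNX-20 replicate 2 at a nominal p over 0.05). The summed level of erythrocyte markers was 87.8 to 178 CPM in A8535 and 72.5 to 159 CPM in PNX-20. No macrophage, pancreas or gut marker was at a nominal p under 0.05, of 13, 14 and 10 tested. Summed pancreas markers were at 219, 221, 385 and 45.7 CPM in A8535 and at 116, 94.9, 139 and 338 CPM in PNX-20, and summed macrophage markers ran from 52.2 to 229 CPM and from 32.3 to 186 CPM.

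**Figure D5:**
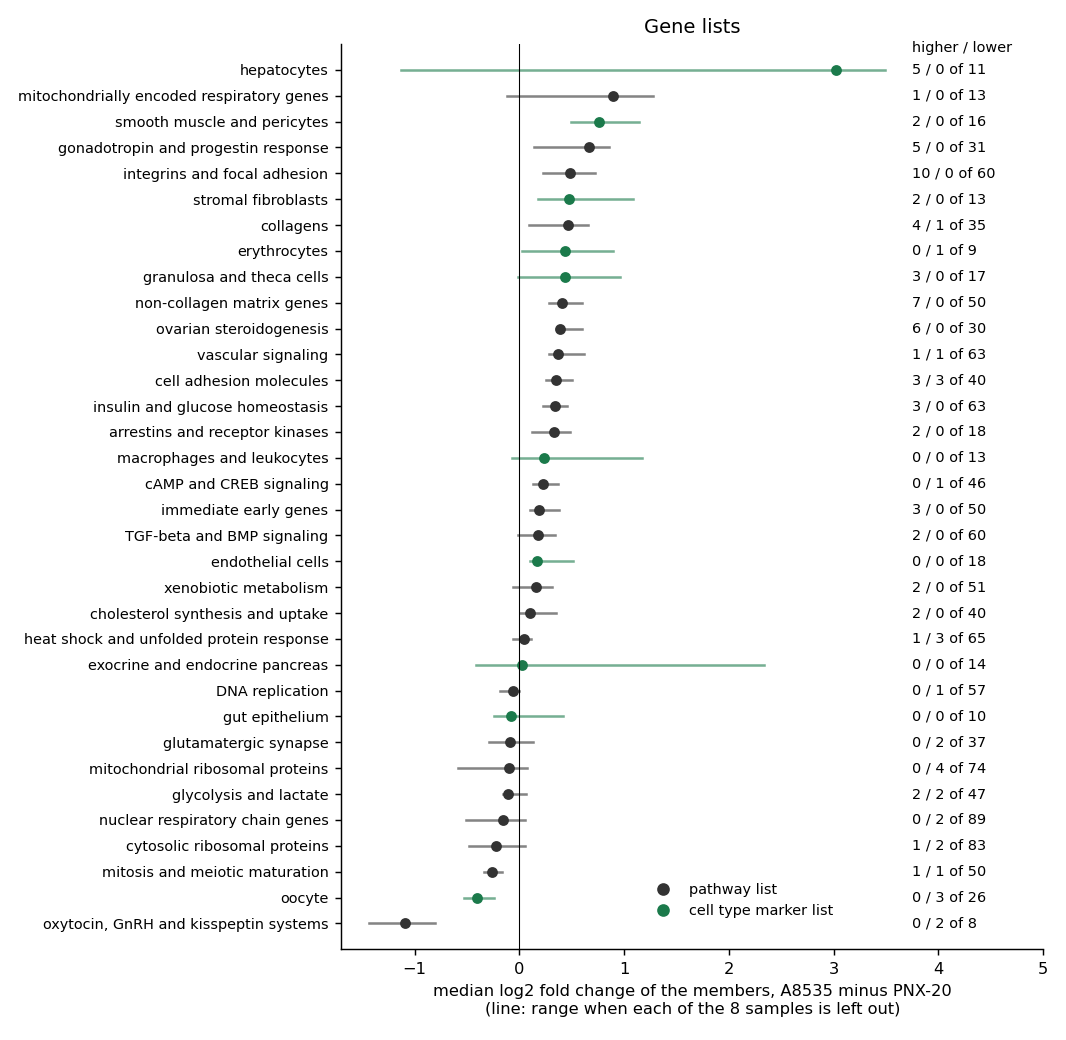
Median log2 fold change of A8535 against PNX-20 for each pathway and cell type list (points), with the range of the median when single libraries are left out (lines) and the number of members higher and lower at a nominal p under 0.05 printed beside it. The hepatocyte line runs from -1.13 to 3.49, and the oocyte line from -0.53 to -0.24 stays below 0.

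Other genes that the study followed by PCR in zebrafish overlapped between the groups. The metalloreductase steap4 was at 69.9, 103, 355 and 40.7 CPM in A8535 and 71.1, 103, 74.2 and 39.7 CPM in PNX-20 (0.98, SE 0.61), so that only replicate 3 set the means apart. The actin-binding thymosin tmsb4x was at 88.2 to 844 against 47.5 to 306 CPM (0.88, SE 0.76), the signal peptidase subunit sec11a at 16.7 to 62.0 against 18.2 to 116 CPM (-0.57, SE 0.73), and the RNA-binding caprin1a at 13.1 to 29.5 against 5.49 to 28.8 CPM (-0.07, SE 0.55). None of these 4 had a nominal p under 0.05. Control levels of caprin1a were 2.96 to 6.70 CPM, below 7 of the 8 A8535 and PNX-20 values.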

How the data were processed

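Ovary explants gave 16 polyA-selected, paired-end RNA-seq libraries, 4 per treatment. According to the submitters' processing notes the authors used fastp for read cleaning, HISAT2 2.0.5 for alignment to GRCz11 and featureCounts 1.5.0-p3 for counting. The deposited tables, 1 per treatment against control, hold raw counts per gene, FPKM values, and counts divided by DESeq2 size factors, a normalized signal. The authors' log2 fold change and p-value columns hold their own comparisons with control and were not used, nor were the FPKM and signal values. The sources used here do not state whether counting used strand, so overlapping antisense genes cannot be told apart.

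Tables were joined on gene ID (26910 genes, of 28009 to 28228 per table). Genes were filtered with filterByExpr, leaving 19216 tested and 7694 not, and the counts of all 16 libraries were fitted together in edgeR 4.0.16 (R 4.3.3; TMM scaling, quasi-likelihood test, Benjamini-Hochberg adjustment), with A8535 minus PNX-20 as the contrast and 12 residual degrees of freedom. CPM uses TMM-scaled library sizes. DESeq2 1.42.0, limma 3.58.1, other scalings and filters, the 8 libraries alone, summed copies, a replicate block and single omissions were alternatives. Lists were described by counts and medians only. Named genes were the smallest 12 p-values in each direction (genes on chromosomes, log2 CPM of at least 0, not clone names), calls of edgeR or DESeq2, up to 4 members per pathway list and members of the other direction, the receptors and arrestins, the 3 most abundant markers and those at an nominal p under 0.05, genes the study followed, and scaffold copies. Not every gene meeting the rule is printed. The members and lists were chosen with earlier results of these data known. Of 1695 list entries, 1588 matched a gene. Gene names come from the files, and 25051 IDs were also found in a RefSeq table of another assembly used for names only. The fit was tested on simulated data.

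Depth was 10232545 to 15102989 counts per library. The median standard error of a log2 fold change was 0.586, so differences under 2-fold were rarely resolved. The Wilson interval treats genes as independent draws and leaves out the spread between libraries. Detection limits cover counting error only.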

Additional observations from a re-analysis of the deposited data

Results flagged for a closer look

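In groups of 4, 13 of 182 sets of values (7.14%) had a highest or lowest library set far from the other 3 by Dixon's criterion. Chance gives about 1 in 20 for normal values. Many of these genes were named for large differences between the groups, so the 7.14% cannot be read against that rate. PNX-20 replicate 1 had the highest total of the PNX-20 libraries, 13328703 counts, and stood out for epcam at 1478 CPM, for bmpr2b at 0 CPM and for ATP8 at 0.0784 CPM. PNX-20 replicate 2 stood out for znf148 at 1.25 CPM. PNX-20 replicate 3 stood out for the yolk precursor genes vtg1 at 39.9 CPM and vtg5 at 2.06 CPM. PNX-20 replicate 4 stood out for cckar at 34.9 CPM and for kat8 at 0.273 CPM. A8535 replicate 3 had the lowest epcam, at 20.4 CPM. A8535 replicate 4 stood out for vtg5 at 386 CPM and vtg3 at 92.0 CPM. A8535 replicate 2 stood out for scarb1 at 475 CPM.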

How the results depend on the processing

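At an adjusted p of 0.05 calls appeared with DESeq2 (3) and over single omissions (0 to 1), and in no other alternative. The count at a nominal p under 0.05, 752 as reported, was 1131 with no filter on low counts, 1708 with limma-voom and 470 to 1107 over single omissions. Alternatives chosen after seeing the data left out A8535 replicate 2 with PT-91 replicates 1 and 2, which gave 1151, or replicate 3 of A8535, PNX-20 and PT-91, which gave 615. The share of higher genes, 52.5% as reported, was 56.9% with RLE scaling, 63.3% with upper quartile, 71.5% with library size, 59.8% with DESeq2, 59.3% with limma-voom, 64.5% with the 8 libraries alone, 57.9% among the 1151, and 43.5 to 71.6% over single omissions. The cause was not tested. Deviations of same-numbered A8535 and PNX-20 libraries correlated at 0.43 for replicate 3 and 0.23 for replicate 4, each its own best match, but at -0.03 and 0.02 for replicates 1 and 2, so the numbers were not taken as pairs. With the replicate block 703 genes were at a nominal p under 0.05, of which 533 were among the 752.

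Of 74 named genes at a nominal p under 0.05, 26 stayed there in every alternative that tested them. Over 1464 values of these genes, 194 lost that p and 5 changed sign. The log2 fold changes that changed sign over single omissions ranged from -3.72 to 0.19 for epcam, -4.45 to 0.36 for rps27a, -3.10 to 11.5 for vtg1, -1.85 to 11.3 for vtg5 and -1.7 to 7.3 for vtg3. Among genes over 0.05 as reported, the ranges were -0.044 to 0.59 for cyp19a1a, -0.48 to 0.39 for gpr173, -0.73 to 0.39 for smim20, -0.39 to 0.22 for caprin1a, -1.03 to 0.23 for sec11a and -0.016 to 1.32 for steap4. The value of gpr173 was 0.030 with upper quartile scaling, 0.029 with limma-voom, 0.028 with the 8 libraries, 0.11 with library size and 0.40 without A8535 replicate 2 and the PT-91 libraries. That of smim20 was -0.70 with limma-voom, -0.34 with the replicate block and -0.71 without those libraries. That of caprin1a was 0.019 with library size, 0.27 with limma-voom, 0.13 with the block, 0.095 without those libraries and 0.011 without replicates 3. It was 0.21 for sec11a with copies summed, -0.26 for tmsb4x with limma-voom, and -0.00021 for steap4 without replicates 3. Differences in library measures, A8535 minus PNX-20, ranged over single omissions from -317316 to 1245265 total counts, from -686.5 to 884 genes detected (636 at 10 counts or more), and from -0.014 to 0.858 percentage points for mitochondrial, -0.908 to 0.335 for ribosomal, -0.659 to 0.093 for the 20 most abundant and -0.19 to 0.205 for scaffold genes.

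List medians kept their sign in every alternative for the oocyte, steroidogenesis, gonadotropin, integrin, matrix, collagen, smooth muscle and fibroblast lists. The same held for the arrestin, cAMP, cell adhesion, cholesterol, erythrocyte, immediate early, insulin, mitosis, oxytocin and vascular lists. A kept sign was therefore not particular to the lists named first, and the alternatives refit the same libraries. Medians of the cytosolic ribosomal, nuclear respiratory chain, glycolysis, DNA replication, xenobiotic and heat shock lists changed sign in 1, 3, 2, 3, 3 and 6 alternatives. Depth limits genes near 1 CPM most, where standard errors were largest.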
